A study of Mus musculus with 16 samples.

Results

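Interferon-stimulated genes are the set of transcripts that cells switch on when interferons reach their receptors, and this account follows 43 of them through hippocampal nuclei of mice that did or did not carry a tau genotype, with or without Ch25h, the gene for cholesterol 25-hydroxylase. The members were chosen by name, from a list of symbols. Of the 43 symbols, 41 had a row among the 32285 genes of the count matrices, and the other two, Mx1 and Mx2, had none. Single-nucleus libraries were prepared with a droplet 3' kit from the hippocampi of female mice aged 9 months, 16 libraries in all and 4 in each of 4 genotype groups. The groups Ch25h+/+ Tau+ and Ch25h+/+ Tau- have intact Ch25h by their labels, and the groups Ch25h-/- Tau+ and Ch25h-/- Tau- are labelled as lacking it. The labels name no treatment, tau line, promoter, strain, kind of Ch25h allele or batch, and they do not say whether a library came from 1 mouse or several. The p-values therefore measure only the spread between libraries, which may be technical. Libraries are named by their group and a replicate number given in accession order, which pairs nothing across groups.

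Interferons signal through paired receptors and JAK kinases. Type I and type III interferons activate a complex called ISGF3, with STAT2 and IRF9 among its parts, that binds an element in the promoters of its target genes. The targets include sensors of viral RNA (Ifih1, Ddx58, Eif2ak2), the signalling proteins Stat2, Irf9 and Irf7 themselves, effectors that bind viral RNA (the Ifit and Oas families), and the ubiquitin-like protein Isg15 with its protease Usp18. In the brain, microglia, the resident macrophages, are known to raise this programme in aging, infection and neurodegeneration, and astrocytes, oligodendroglia and neurons can also run it.

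The element bound by ISGF3 holds the core GAAANNGAAA. Promoter windows of 300 bases, 250 before and 50 from each start, were read from RefSeq (GRCm38.p6) and matched 32 of the 41 measured members. The core, searched as GAAANNGAAA and as its reverse complement TTTCNNTTTC with overlapping matches allowed, was found for 16 of these 32 members (50%), against 3.99% of all 27025 genes in the table. Windows of 280 bases (250 before the start and 30 from it) are printed for 6 members chosen after their values were seen: Ifit1, Bst2, Eif2ak2 and Irf9, whose levels are described below, and Ifit3 and Ifit3b, the neighbours of Ifit1, shown to compare the family. They are written 5′ to 3′ along the gene, with the matched core in capitals, and begin with 3 neighbouring genes of chromosome 19.
Ifit1: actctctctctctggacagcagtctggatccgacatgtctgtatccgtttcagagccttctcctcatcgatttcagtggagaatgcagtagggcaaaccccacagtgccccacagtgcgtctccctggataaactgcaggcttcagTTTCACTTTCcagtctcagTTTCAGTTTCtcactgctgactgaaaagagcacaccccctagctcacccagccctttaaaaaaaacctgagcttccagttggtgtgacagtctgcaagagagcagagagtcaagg
Ifit3: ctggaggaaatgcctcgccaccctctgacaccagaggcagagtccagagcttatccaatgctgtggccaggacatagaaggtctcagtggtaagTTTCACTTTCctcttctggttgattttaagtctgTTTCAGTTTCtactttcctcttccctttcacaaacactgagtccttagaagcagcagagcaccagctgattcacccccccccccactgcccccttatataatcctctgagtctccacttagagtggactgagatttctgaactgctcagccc
Ifit3b: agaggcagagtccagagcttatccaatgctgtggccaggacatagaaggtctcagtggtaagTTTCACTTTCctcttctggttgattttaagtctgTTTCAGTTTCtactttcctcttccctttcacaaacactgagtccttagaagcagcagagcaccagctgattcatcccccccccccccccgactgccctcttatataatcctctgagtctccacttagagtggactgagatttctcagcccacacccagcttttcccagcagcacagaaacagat
Bst2: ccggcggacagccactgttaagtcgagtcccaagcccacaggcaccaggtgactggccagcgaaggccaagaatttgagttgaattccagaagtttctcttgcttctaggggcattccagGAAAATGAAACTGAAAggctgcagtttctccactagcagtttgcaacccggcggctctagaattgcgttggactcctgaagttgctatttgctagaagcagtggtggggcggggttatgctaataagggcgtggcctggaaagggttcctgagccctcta
Eif2ak2: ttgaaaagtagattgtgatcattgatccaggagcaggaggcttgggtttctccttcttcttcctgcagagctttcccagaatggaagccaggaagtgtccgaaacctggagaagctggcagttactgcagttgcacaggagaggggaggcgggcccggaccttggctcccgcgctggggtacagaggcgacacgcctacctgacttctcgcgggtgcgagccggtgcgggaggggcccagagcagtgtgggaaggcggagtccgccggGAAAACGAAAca
Irf9: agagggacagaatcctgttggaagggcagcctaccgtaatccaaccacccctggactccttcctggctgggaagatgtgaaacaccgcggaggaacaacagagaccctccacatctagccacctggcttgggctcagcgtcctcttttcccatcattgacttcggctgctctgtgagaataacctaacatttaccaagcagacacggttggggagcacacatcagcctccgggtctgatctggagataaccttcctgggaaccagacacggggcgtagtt
Ifit1 (chr19:34640639-34640918, plus strand) held its matches from 104 and 85 bases before the start, Ifit3 (chr19:34583279-34583558, plus strand) from 156 and 122, and Ifit3b (chr19:34607707-34607986, plus strand) from 188 and 154. The 300-base windows of Ifit3 and Ifit3b were identical at 259 of 340 alignment columns (76.2%), and those of Ifit1 and Ifit3 at 186 of 354 (52.5%). Columns with gaps are counted in these totals. The Ifit3 and Ifit3b windows are offset, as the places of their matches show, so 76.2% understates the likeness of the stretch they share. Bst2 (chr8:71537443-71537722, minus strand) held a pair of overlapping matches from 130 and 124 bases before the start. The match of Eif2ak2 (chr17:78882543-78882822, minus strand) lay 18 bases after its start base. The window of Irf9 (chr14:55603735-55604014, plus strand) held no match. A match is a description of these letters only.

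After removing low-quality nuclei and scored doublets, 136828 nuclei were kept, 7601 to 10567 per library, with 40766753 to 64704459 UMIs (unique molecule counts) per library in these nuclei, of 51270831 to 84870650 over all barcodes. Replicates 1 and 2 of every group had more UMIs in the low-count barcodes (a median of 89 to 136 over barcodes ranked far below the nuclei by UMIs) than replicates 3 and 4 (66 to 82); the labels name no batch, and tests within each pair of replicates and with this split as a block stand beside the microglial counts. Cell classes were rebuilt here from marker genes, since no annotation of the nuclei was used, and 5276 nuclei stayed unnamed. In microglia, all 12 microglial markers had UMIs and their summed level was 11120 to 16850 CPM (counts per 1000000 UMIs of the class in that library) over the 16 libraries. The 120 pairs of libraries shared 10 to 40 cell barcodes each, at most 0.465% of a library's nuclei. Gm43049, which marks the tau label in these data, had 3020 to 5095 UMIs in each Tau+ library and 1 to 11 in each Tau- library. Ch25h itself had 36, 26, 16 and 16 UMIs in Ch25h+/+ Tau+ replicates 1 to 4, and 9, 8, 9 and 12 in Ch25h+/+ Tau-. It had 30, 30, 24 and 12 UMIs in Ch25h-/- Tau+, and 21, 10, 25 and 20 in Ch25h-/- Tau-. The UMIs of the targeted gene thus overlapped between the Ch25h labels in Tau+ and in Tau- libraries, and whether the 3' tag lies outside the deleted stretch is not given in the sources used here. Gm26902, a long noncoding RNA that overlaps Ch25h on the other strand, had 31 to 47 UMIs in every library labelled Ch25h+/+ and 10 to 20 in every library labelled Ch25h-/-, with no overlap. Directions between the Ch25h labels below are therefore directions between libraries labelled that way.

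Summed over the 41 members, the level in microglial nuclei was 3720, 1883, 1202 and 2048 CPM in Ch25h+/+ Tau+ replicates 1 to 4, and 1242, 999.1, 1298 and 1016 CPM in Ch25h+/+ Tau-. It was 3714, 2671, 1518 and 4177 CPM in the libraries labelled Ch25h-/- Tau+, and 1010, 1058, 1267 and 1006 CPM in those labelled Ch25h-/- Tau-. The Tau- libraries lay close together (1138 ± 153 and 1085 ± 124 CPM, SD, n = 4 each), while the Tau+ libraries were spread more widely (2213 ± 1069 and 3020 ± 1183 CPM). The Ch25h-/- Tau+ libraries all lay above every Tau- library, and Ch25h+/+ Tau+ replicate 3 lay among the Tau- libraries. The plot of summed levels by library shows the other classes beside microglia.

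**Figure D1:**
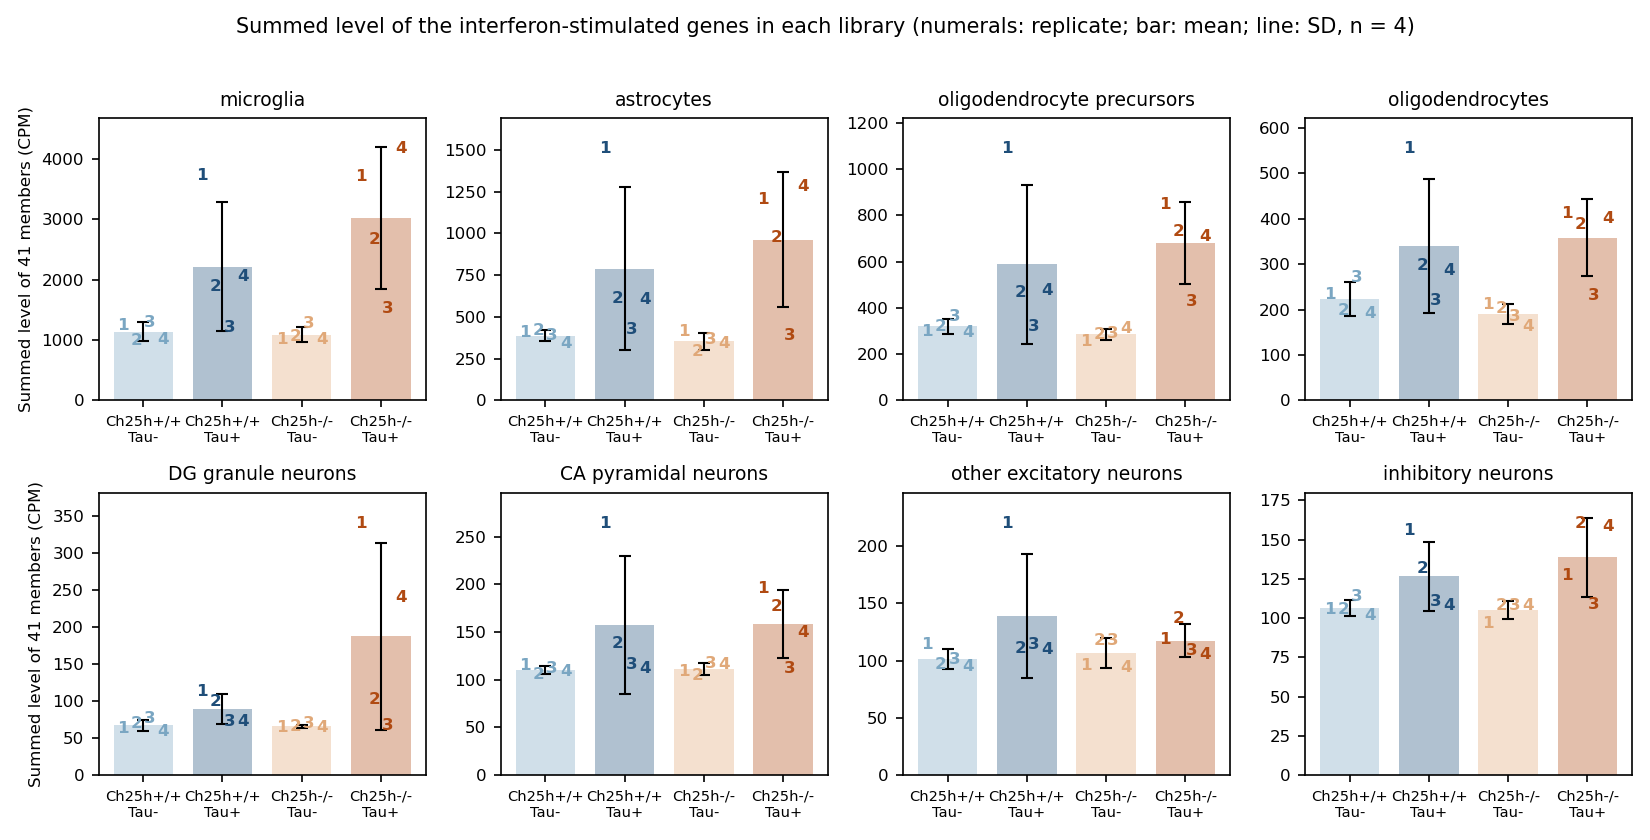
Summed level of the 41 measured interferon-stimulated genes (CPM, y axis) in each of 8 cell classes, by group (x axis); numerals are the replicates, bars the group mean and lines the SD (n = 4). In microglia, Ch25h+/+ Tau+ replicate 1 stood at 3720 CPM and replicate 3 at 1202 CPM, against 999.1 to 1298 CPM in Ch25h+/+ Tau-; replicate 3 was the lowest Tau+ library in both Tau+ groups there.

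The tau contrast in microglia was tested gene by gene across all 8444 genes that passed the count filter, with edgeR's quasi-likelihood test and Benjamini-Hochberg adjustment at 0.05. A gene that passed the filter only through the group where it was high had to differ, so the counts over the 29 members that passed are a description, not support. In the libraries labelled Ch25h-/-, 9 of these 29 members rose with tau and none fell; 1.52% of all genes tested were called, 1.14% upwards. In Ch25h+/+, 0 of the 29 members passed, against 2.18% of all genes called, with 18 at an unadjusted p under 0.05 (15.2% of all genes) and 4 called by DESeq2 (2.87% of all genes). In Ch25h-/-, 28 members had an unadjusted p under 0.05 (14.2% of all genes), and DESeq2 called 14 (2.51%). With replicates 1 and 2 only, 8 of 37 members tested were called in Ch25h+/+ (4.28% of all genes) and 17 of 37 in Ch25h-/- (3.96%). With replicates 3 and 4 only, 0 of 25 were called in each (0% and 0.0133% of all genes). With the split as a block, 1 of 29 was called in Ch25h+/+ (5.16%) and 13 of 29 in Ch25h-/- (3.62%). All 29 members had a positive log2 fold change in both contrasts, with a median of 0.96 in Ch25h+/+ and 1.42 in Ch25h-/-, against 0.0020 and -0.0016 over all genes tested. Before any filter, members were compared by the mean CPM of the 4 libraries of a group. It was higher in Tau+ for 40 of the 41 measured members in Ch25h+/+ and for 41 of 41 in Ch25h-/-. The shares of all genes with UMIs were 53.8% and 53.4%. In sums over a class, more cells with a transcript and more transcript per cell cannot be told apart; counts by nucleus follow further on. The difference between the tau contrasts was not called for any member (0 of 29, with 0% of all genes called, 2 members at an unadjusted p under 0.05 against 3.47% of genes, and 0 by DESeq2).

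Among the sensors, Eif2ak2, which encodes the double-stranded RNA-activated kinase PKR, was at 147.8, 132.4, 111.2 and 204.5 CPM in microglia labelled Ch25h-/- Tau+ and at 51.2, 36.4, 49.8 and 45.7 CPM in Ch25h-/- Tau-. Every Tau+ library lay above every Tau- library, and the log2 fold change was 1.70 ± 0.29 (SE; adjusted p = 0.0071, edgeR). In Ch25h+/+ the levels were 200.3, 89.3, 92.0 and 86.4 CPM with tau and 68.2, 52.9, 88.6 and 53.9 without, and the groups overlapped (log2 fold change 0.83 ± 0.28, adjusted p = 0.134, edgeR). Nlrc5, a transactivator of MHC class I genes, was at 102.7, 63.7, 18.3 and 135.8 CPM in Ch25h-/- Tau+ and at 7.32, 9.10, 3.83 and 14.4 CPM in Ch25h-/- Tau-. Its groups did not overlap (log2 fold change 3.08 ± 0.66, adjusted p = 0.0301, edgeR). With Ch25h, Nlrc5 was at 105.8, 51.4, 28.8 and 70.8 CPM against 15.9, 10.1, 6.81 and 4.15 CPM, again without overlap, and had the lowest p of the members there without passing (2.70 ± 0.69, adjusted p = 0.0564, edgeR). Ifih1 (MDA5) and Ddx58 (RIG-I), the cytosolic sensors of viral RNA, had log2 fold changes of 1.21 and 0.20 in Ch25h+/+ and of 1.10 and 1.02 in Ch25h-/-, and neither passed.

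Irf9, the DNA-binding subunit of ISGF3, was at 96.5, 71.7, 79.6 and 102.3 CPM in microglia labelled Ch25h-/- Tau+ and at 43.9, 32.8, 49.8 and 26.5 CPM in Ch25h-/- Tau-. The lowest Tau+ library lay above the highest Tau- library, and Irf9 rose by 1.21 ± 0.22 on the log2 scale (adjusted p = 0.00715, edgeR). It was one of 2 members, with Eif2ak2, whose call held when each of the 16 libraries was left out in turn; the highest adjusted p were 0.0479 for Irf9 and 0.0425 for Eif2ak2. Both calls were lost with replicates 3 and 4 only (adjusted p = 0.512 and 0.119). In Ch25h+/+ Irf9 stood at 66.8, 63.6, 43.1 and 63.6 CPM with tau and at 31.8, 35.2, 54.5 and 41.5 without (0.58 ± 0.24, adjusted p = 0.219, edgeR). Irf9 overlaps Rnf31 on the same strand, so reads of the shared stretch are uncertain between them. Stat2, the partner of Irf9 in ISGF3, was at 168.5, 84.4, 40.3 and 66.0 CPM in Ch25h+/+ Tau+ and at 50.02, 35.2, 47.7 and 24.9 CPM in Ch25h+/+ Tau-; its log2 fold changes of 1.19 ± 0.49 and 1.40 in the respective contrasts did not pass. Irf7, the factor that amplifies the type I response, was too sparse for the test, with 52 UMIs in Ch25h+/+ Tau+, 34 of them in replicate 1, against 3 in Ch25h+/+ Tau-. It had 69 in Ch25h-/- Tau+ (27, 15, 3 and 24 by replicate) against 2 in Ch25h-/- Tau-.

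Of the antiviral effectors, 6 of the 13 measured passed the filter in microglia, and 3 of the 6 rose with tau in the libraries labelled Ch25h-/-. In that contrast 128 of all 8444 genes were called, 96 of them upwards. Counts over members that passed the filter are again a description, not support. Oasl2, an OAS-like protein, was at 142.8, 89.9, 14.9 and 148.6 CPM in Ch25h-/- Tau+, and 305 UMIs faced 2 in Ch25h-/- Tau-, a ratio of 82.7 (95% interval 22.7 to 686, covering counting error only; adjusted p = 0.0405, edgeR). In Ch25h+/+ it was at 131.5, 50.2, 14.4 and 27.6 CPM with tau and 6.82, 10.1, 0 and 0 without, and the groups did not overlap (log2 fold change 3.51 ± 1.15, adjusted p = 0.147, edgeR). Samd9l, an inhibitor of translation, was at 101.5, 32.3, 41.5 and 83.1 CPM in Ch25h-/- Tau+ and at 7.32, 5.46, 19.1 and 0 CPM in Ch25h-/- Tau-. These groups did not overlap (3.17 ± 0.60, adjusted p = 0.0158, edgeR). In Ch25h+/+ Samd9l had 73 UMIs in Tau+ against 3 in Tau-, a ratio of 11.2 (95% interval 3.70 to 55.7; adjusted p = 0.0670, edgeR). Bst2, or tetherin, which holds budding virions at the cell surface, was at 57.6, 32.3, 21.6 and 43.1 CPM in Ch25h-/- Tau+ and at 7.32, 9.10, 15.3 and 12.03 CPM in Ch25h-/- Tau- (1.85 ± 0.47, adjusted p = 0.0418, edgeR). In Ch25h+/+ the Bst2 groups overlapped (0.68 ± 0.45, adjusted p = 0.529, edgeR). Ifit2, which binds RNA, had no UMI in Ch25h+/+ Tau+ replicate 3, was at 46.2, 12.2 and 5.998 CPM in the other three, and was at 0 to 2.52 CPM in Ch25h+/+ Tau-.

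Among the genes of ubiquitin and ADP-ribose transfer, Rnf213, a large ubiquitin ligase, was at 230.5, 207.1, 96.2 and 210.9 CPM in Ch25h-/- Tau+ and at 61.0, 76.5, 84.2 and 50.5 CPM in Ch25h-/- Tau-. It rose by 1.45 ± 0.30 on the log2 scale (adjusted p = 0.0240, edgeR), with no overlap. In Ch25h+/+ it was at 229.1, 115, 74.8 and 143.9 CPM with tau and at 58.0 to 68.1 CPM without, also with no overlap (1.16 ± 0.32, adjusted p = 0.0664, edgeR). The other six tested members of this role, among them the ADP-ribosyltransferases Parp9, Parp12 and Parp14, did not pass in either contrast. Of the 8 other induced genes tested, 2 rose in Ch25h-/-, where 128 of all 8444 genes were called, 96 of them upwards. They were Rtp4, a chaperone of receptor transport (1.59 ± 0.39, adjusted p = 0.0345, edgeR), and Ifi27, a mitochondrial and nuclear-envelope protein (0.78 ± 0.20, adjusted p = 0.0404, edgeR). Rtp4 overlaps Gm45338 on the same strand, so reads of the shared stretch are uncertain between them. Ifi27 was at 82.7, 75.8, 102.9 and 84.7 CPM against 39.0, 41.9, 49.8 and 67.4 CPM. It was the member with the smallest tau difference in Ch25h+/+, where 62.7, 67.3, 69.0 and 84.0 CPM faced 70.5, 62.9, 61.3 and 66.3 CPM (0.08 ± 0.20, adjusted p = 0.909, edgeR). In the ISG15 pathway, Usp18, which removes ISG15 from proteins and dampens the type I receptor, was at 124.3, 39.1, 14.4 and 39.6 CPM in Ch25h+/+ Tau+ and at 6.82, 0, 13.6 and 4.15 CPM in Ch25h+/+ Tau-, with no overlap but no call (3.27 ± 1.15, adjusted p = 0.182, edgeR).

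**Figure D2:**
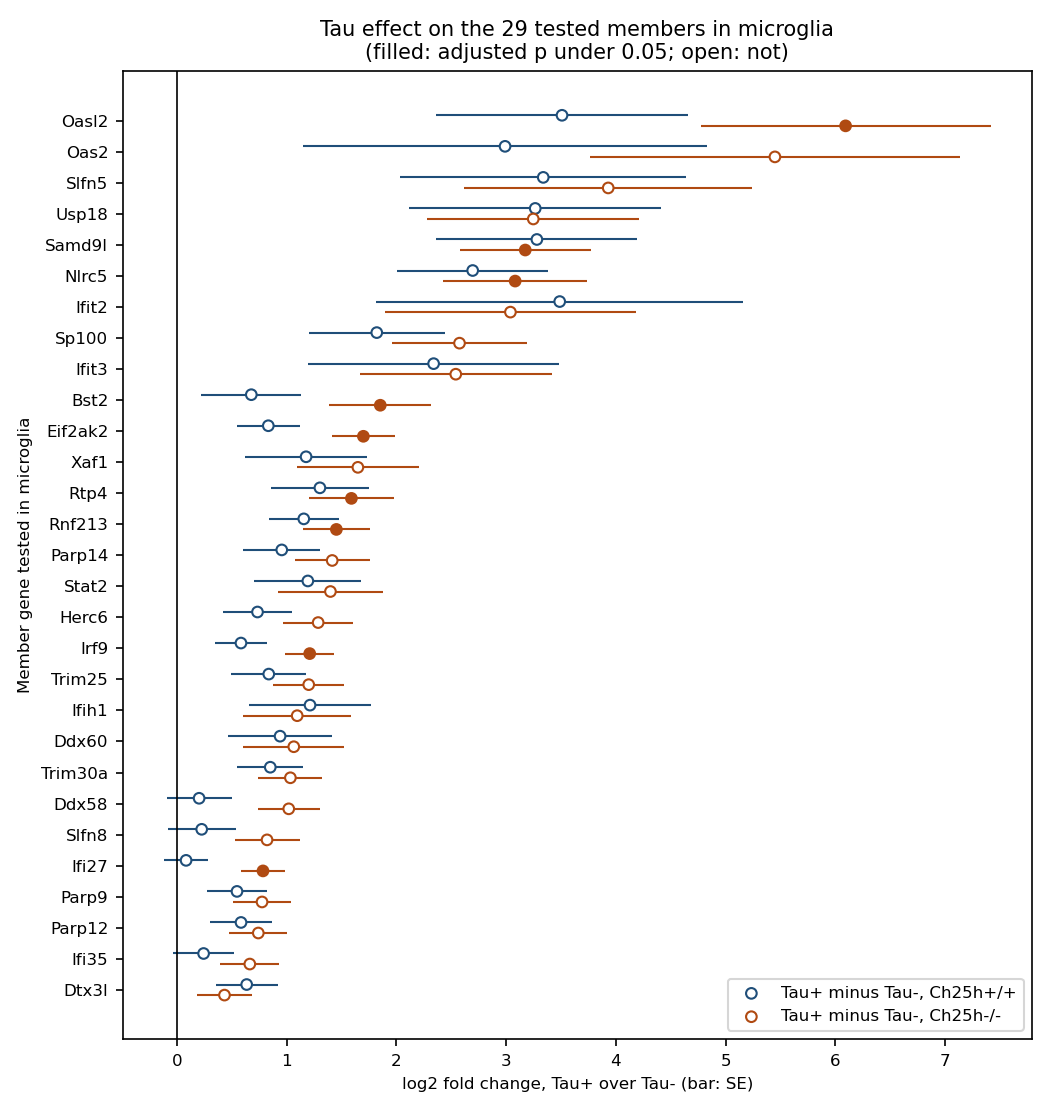
Log2 fold change of Tau+ over Tau- (x axis) for the 29 members tested in microglia (y axis), in Ch25h+/+ (blue) and in the libraries labelled Ch25h-/- (orange); horizontal lines are the SE, and filled points passed an adjusted p of 0.05 (edgeR). All points lie above 0, from 0.08 for Ifi27 to 6.09 for Oasl2, and the 9 filled points are all from the Ch25h-/- libraries.

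The 12 members too sparse for the test in microglia (Ifit1, Ifit3b, Isg15, Oas1a, Oas3, Oasl1, Irf7, Rsad2, Ifi44, Dhx58, Zbp1 and Cmpk2) together had 306 UMIs in Ch25h+/+ Tau+ against 27 in Ch25h+/+ Tau-. Under the Ch25h-/- label they had 538 against 24. Each of the 12 had more UMIs in Tau+ in both contrasts. These are raw UMIs, and Tau+ gave more microglial nuclei (1741 against 1135 in Ch25h+/+, 1724 against 1189 in Ch25h-/-). Per UMI of the class, Dhx58 was level in Ch25h+/+ (35 against 16 UMIs, a ratio of 1.01). Oas3 and Cmpk2 had only 3 and 6 UMIs in Ch25h+/+ Tau+. Rsad2, which makes the antiviral nucleotide ddhCTP, had 16, 5, 0 and 2 UMIs in Ch25h+/+ Tau+ and 17, 5, 0 and 41 in Ch25h-/- Tau+, and none in either Tau- group. Ifit3 and Ifit3b share much of their sequence (47.0% of the 60-base words of Ifit3 transcripts occur in Ifit3b), as do Oas1a and Oas1g (52.9%), so the division of UMIs within these pairs is uncertain.

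In the map of members by library, the same Tau+ libraries stood low or high for most members. Replicate 3 was the lowest of the 4 Tau+ libraries for 24 of 29 tested members in Ch25h+/+ and for 25 of 29 in Ch25h-/-. Replicate 1 was the highest in Ch25h+/+ for 26, while in Ch25h-/- replicate 4 was for 17 and replicate 1 for 11. How many of all genes share these orders was not counted, so they are not shown to be particular to the members. Leaving out 1 library moved the count of calls. In Ch25h-/- it was 23 of 31 when replicate 3 of its Tau+ group was left out (4.2% of all genes called), and 2 to 5 when any other single Ch25h-/- library was (0.313% to 0.702% of all genes). It was 17 of 28 without Ch25h+/+ Tau+ replicate 1 (2.27%) and 18 of 33 without Ch25h+/+ Tau+ replicate 3 (3.54%), libraries that enter this contrast through the shared spread and filter. In Ch25h+/+ it was 6 of 33 when replicate 3 of its Tau+ group was left out (5.98% of all genes). Non-overlap of the groups, which needs no model, held for 5 of 29 members in Ch25h+/+ (Oasl2, Usp18, Rnf213, Samd9l and Nlrc5; 4.09% of all genes tested) and for 15 of 29 in Ch25h-/- (5.01% of all genes).

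**Figure D3:**
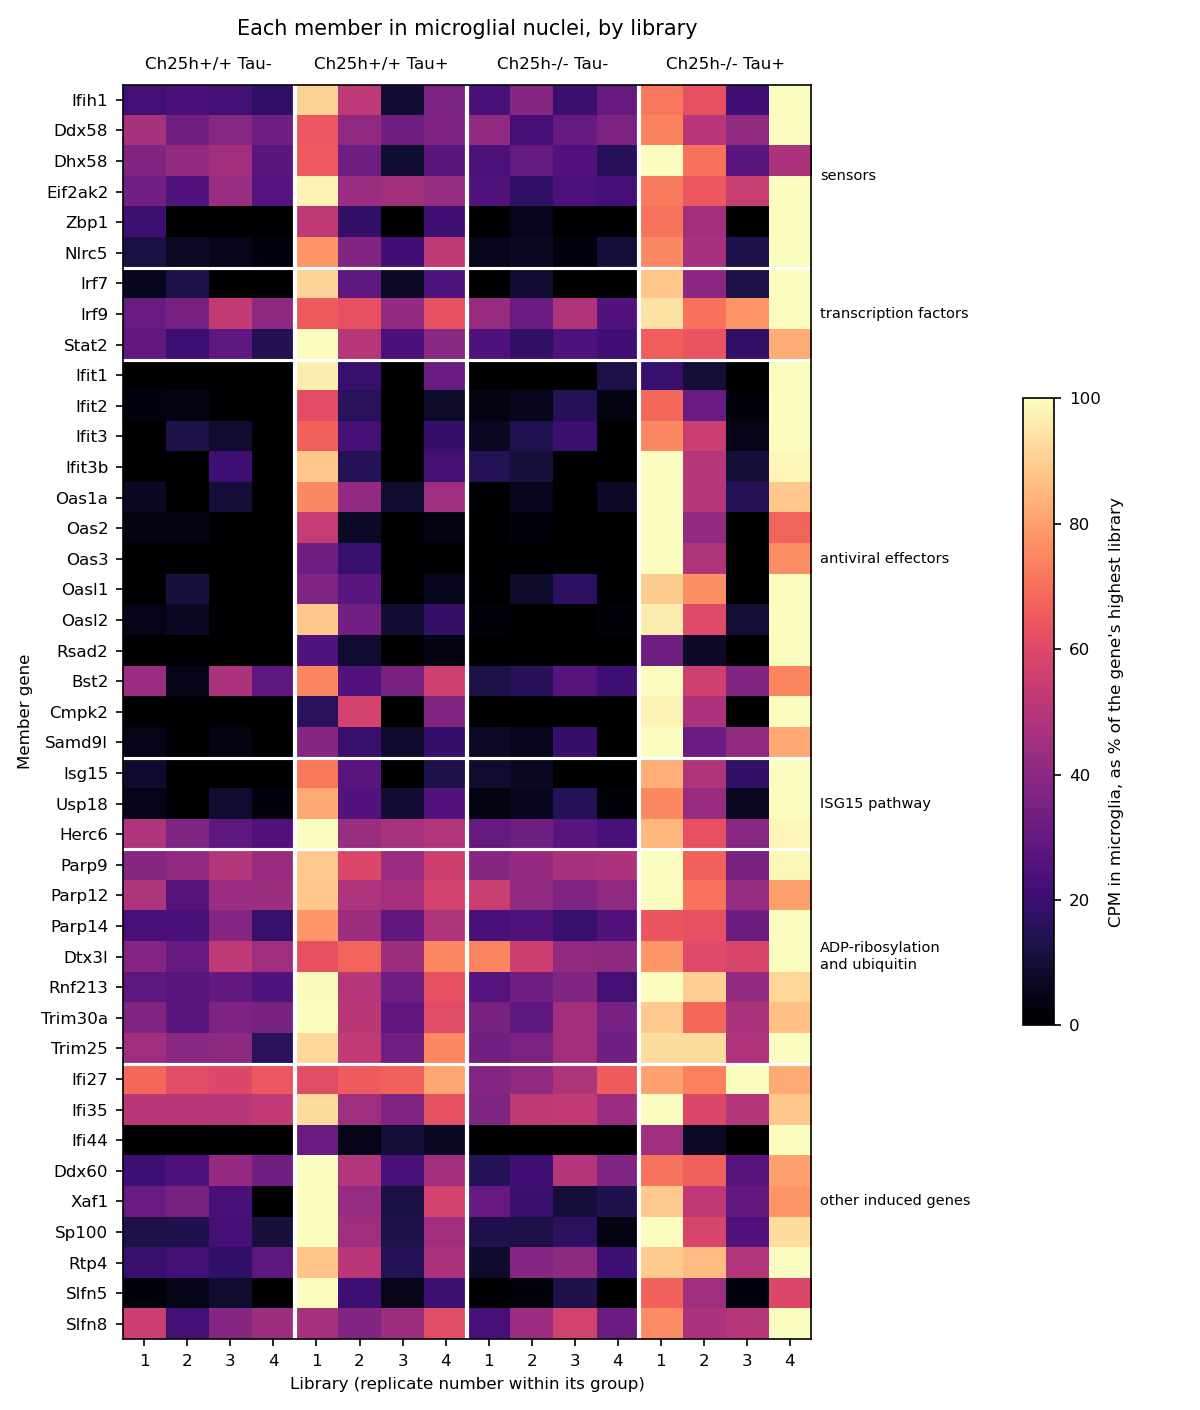
Level of each of the 41 measured members (y axis, by role) in microglial nuclei of each of the 16 libraries (x axis), as percent of that gene's highest library (colour, from CPM). Most members are bright in replicate 1 of Ch25h+/+ Tau+ and in replicates 1 and 4 of Ch25h-/- Tau+, and dim in the Tau- libraries. Replicate 3 was the lowest of the Tau+ libraries for 24 and 25 of the 29 tested members. The share of all genes with that order was not counted.

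Counted by nucleus, 4.74% to 38.7% of microglial nuclei in the Ch25h+/+ Tau+ libraries held UMIs of 5 or more members, a threshold chosen after values were seen, against 0.867% to 3.60% in Ch25h+/+ Tau-. Under the Ch25h-/- label the shares were 6.44% to 47.8% with tau and 0.949% to 3.41% without, so that Tau+ and Tau- libraries did not overlap. These shares were not thinned to a common depth. Median UMIs per microglial nucleus were 1478 to 1750 in Ch25h+/+ Tau+ libraries and 1060 to 1253 in Ch25h+/+ Tau-. In Ch25h-/- they were 1336 to 1983 with tau and 1180 to 1561 without. The share with 2 or more member UMIs was 46.1% to 80.8%, 30.1% to 40.8%, 55.7% to 83.8% and 30.9% to 50.3% in Ch25h+/+ with and without tau and in Ch25h-/- with and without tau, in that order. With each nucleus thinned to 1000 UMIs, and 151, 414, 194 and 290 shallower nuclei left out, these shares were 31.3% to 68.7%, 23.0% to 33.7%, 41.9% to 68.8% and 24.8% to 30.1%. Thinned, the Ch25h+/+ groups overlapped and the Ch25h-/- groups did not. Within the largest of 3 microglial subclusters (3384 nuclei; the clustering used these genes), the summed level was 1143 to 2259 CPM in Ch25h+/+ Tau+ and 962 to 1260 CPM in Ch25h+/+ Tau-, with overlap, and 1462 to 2346 CPM in Ch25h-/- Tau+ and 900 to 1197 CPM in Ch25h-/- Tau-, without. A subcluster of 1432 nuclei led by Gpnmb and Spp1 had the highest summed level of the 3 (3922 CPM, with UMIs of 5 or more members in 43.0% of nuclei), and the groups were unequally present in it. It held 848 nuclei of Ch25h+/+ Tau+ and 546 of Ch25h-/- Tau+, against 27 of Ch25h+/+ Tau- and 11 of Ch25h-/- Tau-. Replicate 3 gave the fewest of the Tau+ nuclei there, 11 and 25. Within it the pooled level was lower with tau, at 3224 against 3556 CPM in Ch25h+/+ and 4858 against 6714 CPM in Ch25h-/-, where each Tau- library had 1 to 10 nuclei. In the third subcluster, of 973 nuclei and led by mitochondrial genes, the levels were 1222 to 2675 CPM against 910.2 to 1190 CPM in Ch25h+/+, and 1617 to 2734 CPM against 954.5 to 1198 CPM in Ch25h-/-, without overlap in either. The microglial values above are sums over these subclusters, and the part of the subcluster shares in them was not tested. Microglia held T and NK cell markers at 7.34 to 23.0, 4.15 to 10.2, 7.52 to 12.8 and 0 to 4.88 CPM in these groups, with 6 of 10 markers detected and Cd3e, Themis, Cd8a and Nkg7 at 0; their part in the result was not tested. The level in barcodes with under 100 UMIs, which hold mostly free RNA, was 214.6 to 653.1, 158 to 262, 189.2 to 521.6 and 187.1 to 280.2 CPM.

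Astrocytes followed with 31 members tested among 12814 genes. Their summed level was 1509, 612.2, 425.2 and 604.1 CPM in Ch25h+/+ Tau+ and 403.2, 416.6, 386.2 and 342.8 CPM in Ch25h+/+ Tau-. Under the Ch25h-/- label it was 1205, 976.6, 389.6 and 1279 CPM with tau and 412.3, 291, 364.7 and 341.9 CPM without. Replicate 3 of Ch25h-/- Tau+ lay among the Tau- libraries, and the other three lay above them all. In Ch25h+/+, 1 of 31 members rose (0.585% of all genes tested were called, 0.499% upwards), namely Irf9, at 54.3, 27.8, 17.3 and 27.5 CPM against 11.6, 11.6, 12.9 and 12.4 CPM. The Irf9 groups did not overlap (log2 fold change 1.31 ± 0.28, adjusted p = 0.0375, edgeR), but the call was lost in 8 of the 16 fits that left out 1 library, among them those without Ch25h+/+ Tau+ replicate 1, 2 or 4 or any 1 Ch25h+/+ Tau- library, with an adjusted p of up to 0.158. There 23 members had an unadjusted p under 0.05 (12.3% of genes), and DESeq2 called 3 (1.41%). In Ch25h-/-, 0 of 31 members passed (0.0546% of all genes called), although 29 had an unadjusted p under 0.05 (7.87% of genes) and DESeq2 called 19 (0.858%). The call count there turned on single libraries, since 23 of 34 members passed once Ch25h-/- Tau+ replicate 3 was left out (0.951% of all genes called). Leaving out replicate 1 of Ch25h+/+ Tau+ gave 17 of 31 (0.432%). Median log2 fold changes were 1.40 in Ch25h+/+ and 1.97 in Ch25h-/-, against -0.0034 and -0.0053 over all genes tested. Before any filter, 38 and 40 of the 41 measured members had the higher mean CPM in Tau+ (59.9% and 55.0% of all genes).

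The members of lowest p in astrocytes labelled Ch25h-/- were Ifi35, Bst2 and Ifi44, all with an adjusted p of 0.143 (edgeR). Ifi35 was at 11.3, 10.9, 5.66 and 8.53 CPM with tau and at 3.66, 0.544, 1.97 and 2.98 CPM without (1.97 ± 0.44), with no overlap. Bst2 was at 9.53, 6.02, 2.27 and 8.53 CPM against 1.46, 0, 0.984 and 1.33 CPM (2.70 ± 0.61), again with no overlap. Ifi44 had 60 UMIs in Ch25h-/- Tau+, none of them in replicate 3, and none in Ch25h-/- Tau-, at least 23.3-fold higher when the empty group is set to 3 counts in all. Usp18 showed the same split of libraries, at 24, 21.3, 2.27 and 36.1 CPM with tau against 0 to 1.46 CPM without. Nuclei with 5 or more members were 1.05% to 18.2% of astrocytes in Ch25h+/+ Tau+ and 0.356% to 1.06% in Ch25h+/+ Tau-. They were 0.693% to 12.3% in Ch25h-/- Tau+ and 0% to 0.963% in Ch25h-/- Tau-. Summed microglial markers were 110 to 172, 86.3 to 134, 124 to 152 and 98.4 to 132 CPM in astrocytes, in the same order of groups as for microglia. Leaving out nuclei with 2 or more microglial marker UMIs left the counts of called members at 1 and 0. The share of all genes called in those fits is not given here. A count of 0 could not fall, so the part of microglial RNA in the astrocyte levels was not tested.

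In oligodendrocyte precursors, 15 members were tested among 9390 genes and 1 rose in the libraries labelled Ch25h-/- (0.0958% of all genes called, 0.0639% upwards; 12 members at an unadjusted p under 0.05, against 4.82% of genes; 2 by DESeq2, against 0.128%). Irf9 was at 38.1, 17.8, 16.5 and 24.9 CPM in Ch25h-/- Tau+ and at 5.44, 2.90, 3.1 and 3.51 CPM in Ch25h-/- Tau-, with no overlap (2.70 ± 0.48, adjusted p = 0.00675, edgeR). Of the 16 fits that left out 1 library, the one without Ch25h-/- Tau+ replicate 1 lost the call (adjusted p = 0.0777), as did the fits of replicates 1 and 2 only (0.107) and of replicates 3 and 4 only (0.453). In Ch25h+/+, 0 of 15 passed (0.0106% of all genes called; 7 at an unadjusted p under 0.05, against 5.18% of genes; 0 by DESeq2), and Irf9 was at 39.2, 10.97, 13.1 and 10.9 CPM with tau and at 5.26, 10.8, 10.0 and 10.6 CPM without. Ddx60, an RNA helicase that aids RIG-I signalling, was widely spread, at 142.4, 39.5, 6.56 and 38.3 CPM in Ch25h+/+ Tau+ against 6.04 to 10.0 CPM in Ch25h+/+ Tau-. In mature oligodendrocytes, 0 of 17 members tested among 11962 genes passed in either contrast (0.00836% of all genes called in each; 8 and 12 members at an unadjusted p under 0.05, against 6.92% and 8.08% of genes; 0 and 2 by DESeq2, the latter against 0.092%). Rtp4 had the lowest p in Ch25h-/-, at 15.9, 16.7, 5.24 and 14.6 CPM with tau against 4.40, 1.77, 1.11 and 2.05 CPM (2.30 ± 0.45, adjusted p = 0.159, edgeR), with no overlap. Nlrc5 had 116 UMIs in oligodendrocytes of Ch25h-/- Tau+ against 1 in Ch25h-/- Tau-, a ratio of 51.9 (95% interval 9.14 to 2069, counting error only). Between libraries it did not pass (5.36 ± 1.35, adjusted p = 0.310, edgeR). The median log2 fold changes of the tested members were 0.59 and 1.04 in precursors and 0.88 and 1.05 in oligodendrocytes, in Ch25h+/+ and Ch25h-/-. Over all genes tested they were -0.0044, -0.0030, -0.0066 and -0.0087, in the same order. Before any filter, 36 of 38 and 36 of 39 members with UMIs had the higher mean CPM in Tau+ precursors (52.9% and 52.2% of all genes). In oligodendrocytes these were 37 of 39 and 38 of 40 (51.5% and 49.5%).

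Dentate gyrus (DG) granule neurons held the members at a low level, and 17 were tested among 15086 genes. Their summed level was 113.2, 99.6, 72.6 and 72.5 CPM in Ch25h+/+ Tau+ and 340.1, 101.9, 66.5 and 239.9 CPM in the libraries labelled Ch25h-/- Tau+, against 59.2 to 75.8 CPM over all 8 Tau- libraries. Replicates 1 and 4 of Ch25h-/- Tau+ stood far above the rest. Ifit1, which binds viral RNA that lacks a self mark on its cap, had 65.9, 5.57, 0.285 and 33.1 CPM in Ch25h-/- Tau+, and its UMIs were 523, 53, 2 and 199 in Ch25h-/- Tau+, 51, 48, 4 and 3 in Ch25h+/+ Tau+, and 1 to 10 in each Tau- library. No member passed in Ch25h-/- (0 of 17; 0.0994% of all genes called; 15 at an unadjusted p under 0.05, against 7.11% of genes; 8 by DESeq2, against 0.517%) or in Ch25h+/+ (0 of 17; 0.0265% called; 1 at an unadjusted p under 0.05, against 5.85% of genes; 0 by DESeq2). Ddx58 came nearest, at 9.45, 4.21, 2.43 and 7.15 CPM with tau against 1.53, 2.09, 1.55 and 1.71 CPM, without overlap (1.76 ± 0.35, adjusted p = 0.0722, edgeR). Usp18 had 110 UMIs in Ch25h-/- Tau+, 0 of them in replicate 3, against 4 in Ch25h-/- Tau- (5.26 ± 1.06, adjusted p = 0.115, edgeR), and Ifit1 had a log2 fold change of 5.95 ± 1.31 (adjusted p = 0.169, edgeR).

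The Ifit1 signal was carried by a minority of DG nuclei; this count was chosen after values were seen. In Ch25h-/- Tau+ replicate 1, 212 of 1055 DG nuclei had an Ifit1 UMI (20.1%, 95% Wilson interval 17.8 to 22.6), with up to 18 UMIs in a nucleus. In replicate 4 the share was 103 of 958 (10.7%, 8.94 to 12.9), in replicate 2 it was 26 of 1196 (2.17%), and in replicate 3 it was 2 of 1019 (0.196%). Every Tau- library lay between 0.0883% and 0.399%. In replicate 1, 100 DG nuclei held 5 or more members; they had a median of 9603 UMIs against 6634 in the other DG nuclei, DG markers at 2298 against 2483 CPM, and microglial markers at 121.6 against 152.6 CPM. CA pyramidal neurons showed another order of libraries. Ifit1 had 253, 43, 17 and 23 UMIs in CA neurons of Ch25h+/+ Tau+, 171, 106, 19 and 72 in Ch25h-/- Tau+, and 10 to 28 in each Tau- library. The highest share was in Ch25h+/+ Tau+ replicate 1, with 97 of 1210 CA nuclei (8.02%). Oasl2 in CA neurons had 221, 35, 1 and 2 UMIs in Ch25h+/+ Tau+ replicates 1 to 4, against 4 in all of Ch25h+/+ Tau-. Replicate 1 thus gave most of them, and the log2 fold change of 5.87 (adjusted p = 0.944, edgeR) was 3.44 without it (adjusted p = 0.995; 0.159 to 0.999 over the alternatives). In Ch25h-/- Tau+ it had 47, 82, 2 and 32 UMIs, against 3 in Ch25h-/- Tau- (pooled ratio 50.4, 95% interval 16.95 to 247, counting error only). Between libraries Oasl2 did not pass there (5.51 ± 1.95, adjusted p = 0.325, edgeR). Of 29 members tested there among 16369 genes, 0 passed in either contrast (0.0183% and 0.0611% of all genes called; 11 at an unadjusted p under 0.05 in each, against 5.08% and 10.7% of genes; 0 and 1 by DESeq2, the latter against 0.996%), with median log2 fold changes of 0.72 and 0.69 against -0.0015 and -0.011 over all genes.

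**Figure D4:**
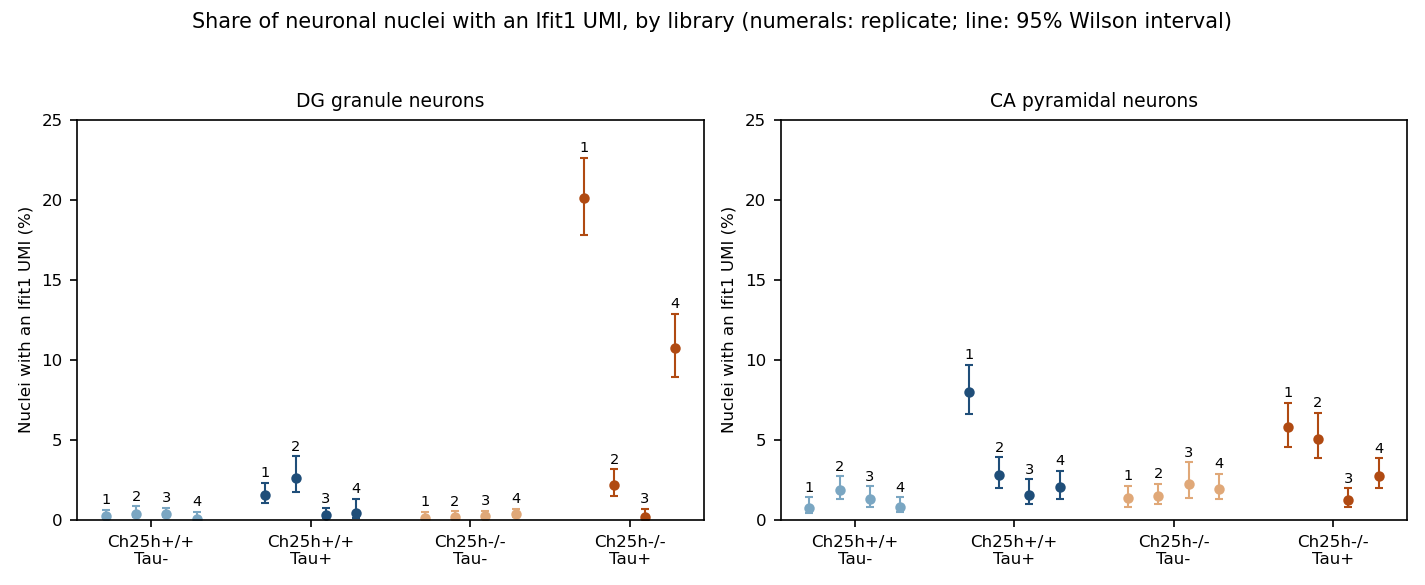
Share of DG granule and CA pyramidal nuclei with an Ifit1 UMI (percent, y axis) in each of the 16 libraries (x axis, by group; numerals are the replicates); lines are 95% Wilson intervals, which cover counting error only. Replicates 1 and 4 of Ch25h-/- Tau+ stand out in DG neurons at 20.1% and 10.7%, and replicate 1 of Ch25h+/+ Tau+ is the highest in CA neurons at 8.02%.

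In other excitatory neurons 0 of 24 members tested passed in either contrast (0.0235% of 17030 genes called in each; 3 and 1 at an unadjusted p under 0.05, against 4.06% and 6.7% of genes), and the largest summed level was 220.2 CPM in Ch25h+/+ Tau+ replicate 1, against 94.4 to 137.1 CPM in the other 15 libraries. Rnf213 had the lowest p in Ch25h+/+, at 9.31, 6.14, 5.40 and 6.33 CPM with tau and at 3.31 to 4.45 CPM without, with no overlap (0.83 ± 0.18, adjusted p = 0.801, edgeR). The 1 member in Ch25h-/- was Ifit3b, which was lower with tau (-0.51 ± 0.24, unadjusted p = 0.0497, adjusted p = 0.740, edgeR). In inhibitory neurons 0 of 18 passed in either contrast (0.0205% and 0.0274% of 14616 genes called; 0 and 5 at an unadjusted p under 0.05, against 4.54% and 5.88% of genes), and summed levels were 96.3 to 113.9 CPM in Tau- and 108.1 to 160.5 CPM in Tau+. Rnf213 had the lowest p in Ch25h-/- (0.86 ± 0.28, adjusted p = 0.817, edgeR), followed by Stat2 and Ifit2, and Parp12, Ifit2 and Nlrc5 had the lowest in Ch25h+/+ (log2 fold changes of 0.39, 0.42 and 0.71). Before any filter, 39 of 41 members in Ch25h+/+ and 32 of 40 in Ch25h-/- had the higher mean CPM in Tau+ other excitatory neurons. The shares of all genes with UMIs were 58.8% and 49.4%. In inhibitory neurons these were 28 of 37 and 33 of 39, against 55.5% and 50.4%. Over the 4 neuron classes, DESeq2 called 0 members in Ch25h+/+ and 9 of 88 tests of a member in Ch25h-/- (0.403% of all tests). No member passed the count filter in Cajal-Retzius cells.

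Vascular, meningeal and immune classes had too few nuclei in some libraries for a test and are described only. Of the 41 measured members, 22 had their highest pooled level in the 117 T and NK cell nuclei, 11 in border-associated macrophages, 7 in endothelial cells and 1 in choroid plexus epithelium. The T and NK cell nuclei held 211, 35, 440 and 115 member UMIs in Ch25h+/+ with and without tau and in Ch25h-/- with and without tau, so the Ch25h-/- Tau+ libraries gave most of them. Pooled summed levels there were 4873, 2124, 11867 and 4863 CPM in the same order, over 39, 17, 38 and 23 nuclei. Libraries ranged from 1961 to 5955 CPM against 1403 to 2721 CPM in Ch25h+/+, and from 1908 to 17258 CPM against 3526 to 5754 CPM in Ch25h-/-, with overlap in both. Single genes rest on few UMIs there: of the Ifit2 UMIs, 3 came from Ch25h+/+ Tau+, 12 from Ch25h-/- Tau+ (11 of them in replicate 4) and none from the Tau- groups. Among the classes tested, microglia were highest for 33 members, astrocytes for 4, precursors for 3 and oligodendrocytes for 1. Endothelial cells had pooled summed levels of 3170 and 3209 CPM in Ch25h+/+ and Ch25h-/- with tau, and 2394 and 2209 CPM without. Their libraries overlapped (2193 to 4258 CPM against 693.5 to 3097 CPM). These levels rest on 99 and 73 nuclei with tau and 58 and 82 without, and Ch25h+/+ Tau- replicates 1 to 4 gave 3, 5, 48 and 2. Of the nuclei in the endothelial cluster, 47.4% were scored as doublets and removed. Border-associated macrophages held 4020, 3474, 3766 and 4157 CPM, in Ch25h+/+ with and without tau and then in Ch25h-/- with and without tau. Fibroblasts held 1328, 1338, 2101 and 1247 CPM in the same order.

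**Figure D5:**
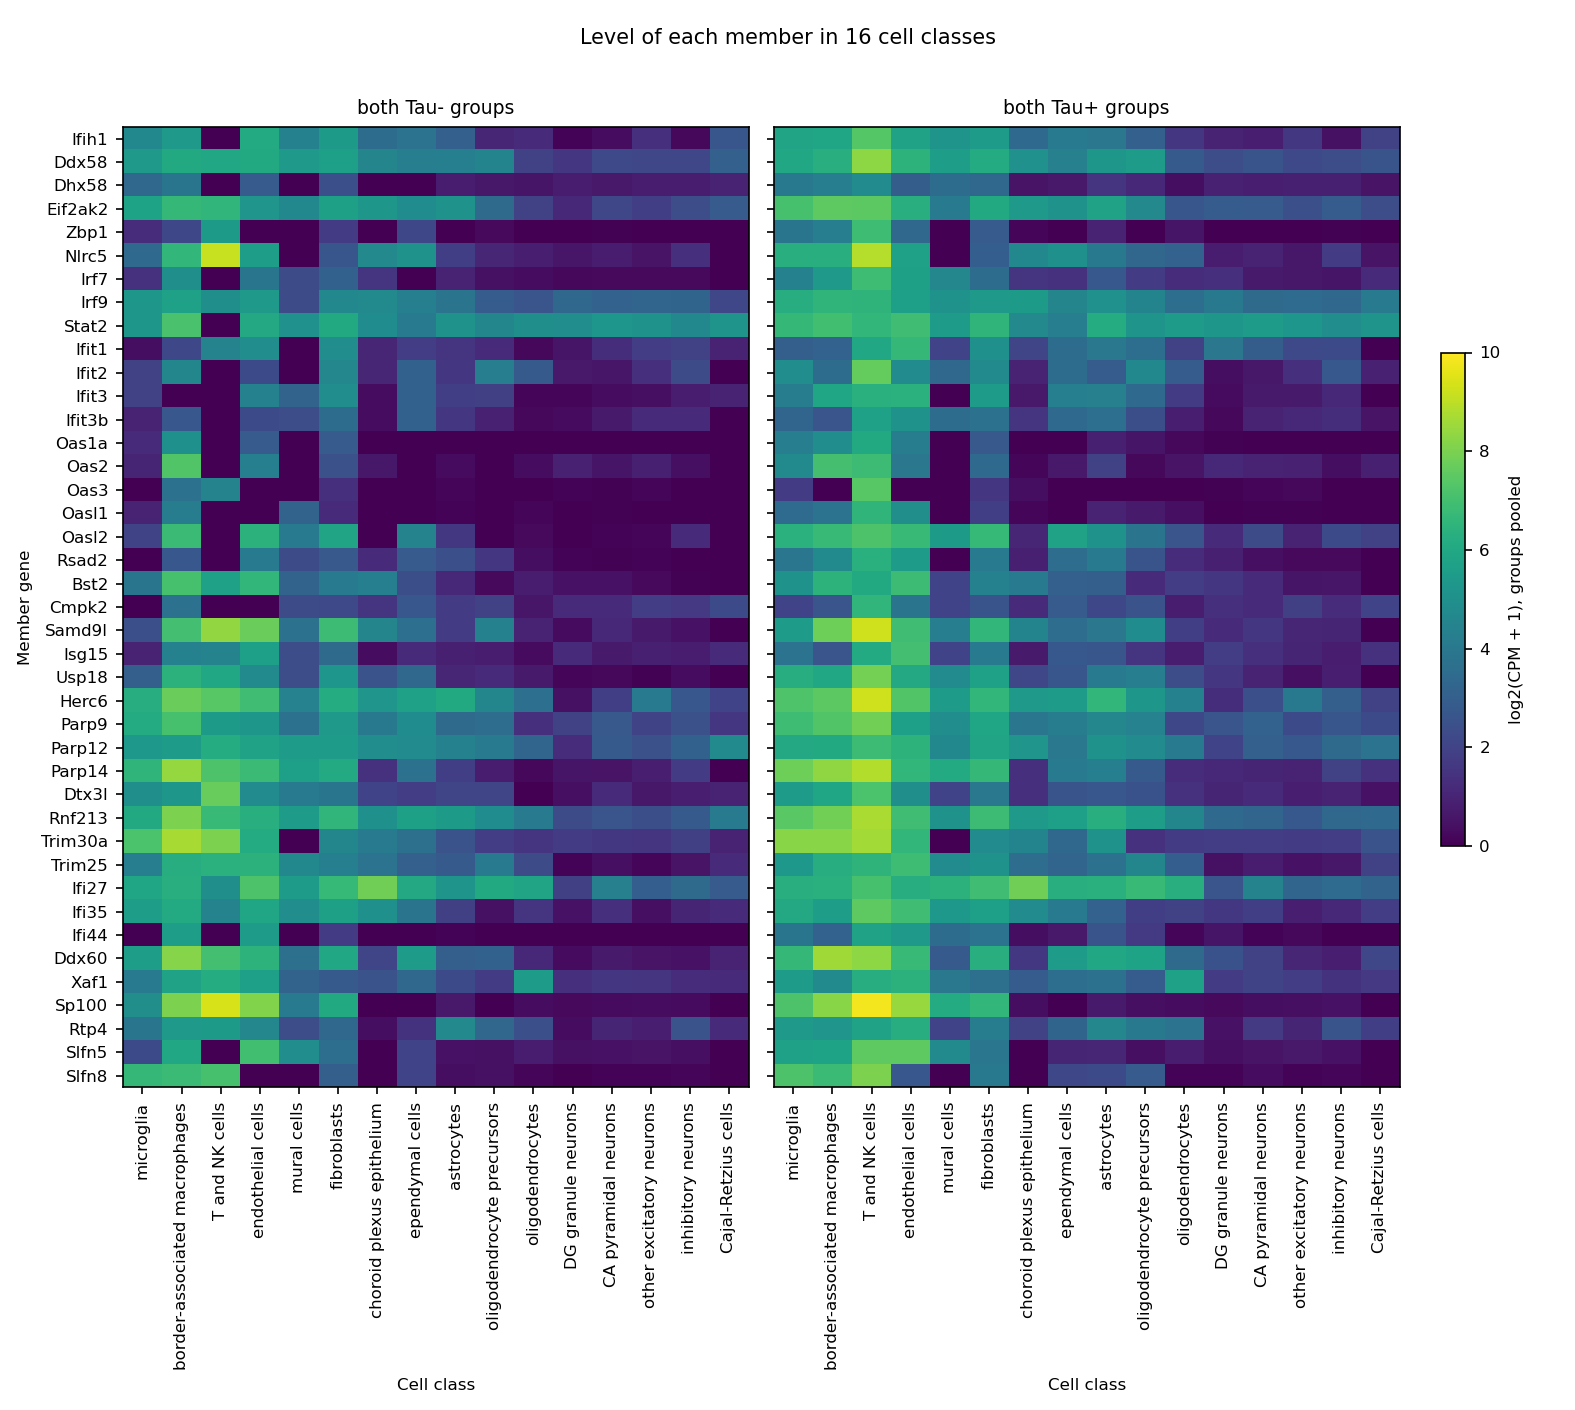
Pooled level of each of the 41 measured members (y axis) in 16 cell classes (x axis), as log2(CPM + 1), in the Tau- groups (left) and the Tau+ groups (right). Microglia, border-associated macrophages, T and NK cells and endothelial cells hold most of the high levels, and neurons hold low levels; 33 of the 41 members had their highest level among the tested classes in microglia.

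Pooled over all kept nuclei, the summed level was 434.2, 218.1, 175.7 and 205.1 CPM in Ch25h+/+ Tau+ and 141.3, 134.9, 157.9 and 122.7 CPM in Ch25h+/+ Tau-. It was 326.4, 264.9, 157 and 292.9 CPM in the libraries labelled Ch25h-/- Tau+ and 148.6, 128.1, 150.1 and 145.1 CPM in those labelled Ch25h-/- Tau-. All Ch25h+/+ Tau+ libraries lay above every Ch25h+/+ Tau- library, and each Ch25h-/- Tau+ library lay above every Ch25h-/- Tau- library. Still, 0 of 40 members passed in either contrast (0.126% and 0.767% of 21392 genes called; 34 and 37 members at an unadjusted p under 0.05, against 14.6% and 12.1% of genes; 15 and 17 by DESeq2, against 2.57% and 2.89%). Trim25, a ubiquitin ligase that acts on RIG-I, had the lowest p in Ch25h+/+, at 4.88, 2.93, 2.25 and 3.18 CPM with tau and 0.941 to 1.63 CPM without, with no overlap (1.31 ± 0.25, adjusted p = 0.0511, edgeR). Parp14 (1.68 ± 0.37) and the nuclear-body protein Sp100 (2.05 ± 0.47) followed. In Ch25h-/- the lowest p were those of Slfn8 (1.64 ± 0.39, adjusted p = 0.0689, edgeR), Trim25 (1.0 ± 0.25) and Rsad2 (2.41 ± 0.60). These pooled sums also depend on how many nuclei of each class a library gave.

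The contrasts between Ch25h labels share their libraries with the tau contrasts. In Tau+ mice, no member passed in any of the 8 tested classes listed above (0 of 180 tests of a member in a class; 0.00662% of the 105711 tests of all genes called; lowest adjusted p 0.999, edgeR; 15 tests at an unadjusted p under 0.05, against 3.32% of all; 0 by DESeq2). In microglia 0% of all genes were called in this contrast. The mean CPM of 40 of 41 members was higher in the libraries labelled Ch25h-/- Tau+ (49.1% of all genes with UMIs). The median log2 fold change was 0.34 over the 29 tested, against -0.0046 over all genes. There 3 members had an unadjusted p under 0.05 (3.08% of genes). Samd9l had the lowest p (1.45 ± 0.42, unadjusted p = 0.003), and Irf9 (0.52 ± 0.19) was the member with no overlap between these groups (1 of 29, against 1.16% of all genes). In DG neurons 9 of 17 tested members had an unadjusted p under 0.05 in the same contrast (3.49% of genes; 0.00663% called) with a median of 1.03, led by Ddx58 (1.27 ± 0.35), Usp18 (2.99 ± 0.90) and Parp9 (1.03 ± 0.32), all at an adjusted p of 1 (edgeR). The high values there were those of replicates 1 and 4. In CA neurons 21 of 41 members and in other excitatory neurons 9 of 41 had the higher mean CPM with the Ch25h-/- label. The shares of all genes with UMIs were 42.9% and 44.9%. In Tau- mice 0 of 180 tests passed (0.00284% of all tests called; 4 at an unadjusted p under 0.05, against 3.54%; 0 by DESeq2), and in microglia 17 of the 37 members with UMIs were higher with the Ch25h-/- label (49.7% of all genes). In that contrast 10 of 39 members were higher in astrocytes (51.1% of genes) and 9 of 34 in oligodendrocyte precursors (50.3%), so most were lower there, while 27 of 41 were higher in CA neurons (56.6%). For the difference between the tau contrasts, 0 of 180 passed (0% of all tests called; 11 at an unadjusted p under 0.05, against 4.16%; 0 by DESeq2). Ifit2, Ifit3, Ifit3b and Ifit1, of which all but Ifit2 have their promoters printed above, lie 75.5, 108.4, 132.8 and 165.7 kb from Ch25h (chr19:34473778-34475164, GRCm38), so a difference linked to that locus and an effect of the enzyme cannot be told apart for them.

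The other 39 genes of the pathway, from ligands to negative regulators, were listed separately, and 22 were tested in microglia. Interferon genes themselves were near absent, with 2 UMIs of Ifnb1, 6 of Ifng and none of Ifna4 over all kept nuclei, while Ifnk had 217, none of them in microglia. Of the 22, 1 rose in Ch25h+/+ and 0 passed in Ch25h-/-, against 2.18% and 1.52% of all genes called. There were 5 at an unadjusted p under 0.05 in each contrast, against 15.2% and 14.2% of all genes, and the medians were 0.17 and 0.13. The called gene was Ifngr2, a subunit of the interferon gamma receptor (0.60 ± 0.16, adjusted p = 0.0425, edgeR), which had a log2 fold change of 0.07 ± 0.15 in Ch25h-/-. The type I receptor subunits Ifnar1 and Ifnar2 had log2 fold changes of 0.40 and 0.16 in Ch25h+/+ and of 0.47 and 0.14 in Ch25h-/-, none of which passed in microglia. In the other tested classes no gene of the 39 passed in either tau contrast, while in the sum of all kept nuclei Ifnar2 rose in Ch25h+/+ (0.43 ± 0.074, adjusted p = 0.0443, edgeR). The promoter core was found for 7 of the 34 pathway genes in the RefSeq table, against 16 of 32 members.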

How the data were processed

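The authors deposited count matrices of UMIs per gene and barcode, 1 per library; the file headers name Cell Ranger 4, the submitters' processing notes Cell Ranger 3.1.0, Seurat and build mm10, and the counting of introns is not given in the sources used here. Nuclei with at least 500 UMIs and 300 genes and at most 5% mitochondrial UMIs were kept, and all 147873 were clustered with scanpy 1.11.5 (3000 genes, 50 components, 20 neighbours, Leiden resolution 1) and the clusters named by marker genes; 11045 nuclei scored as doublets were then removed. UMI counts were summed per library and class (10 nuclei or more in each) and tested with edgeR 4.0.16 (R 4.3.3; quasi-likelihood, TMM, default low-count filter, 1 model of 4 groups), adjusting over all genes of the class; DESeq2 1.42.0 was an alternative. The test recovered known changes on simulated counts, but their settings are not given here, so this says nothing of its power at low counts.

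The members, gene lists and tests were chosen with earlier results of these data known. The rule was to name every member called in a class and contrast, and otherwise at most the 3 of lowest p; other members named were picked for their role or after their values were seen. Promoters are RefSeq's. The library totals limit precision as the intervals show, and intervals cover counting error only. Alternatives left out libraries, changed scaling, filters and doublet removal, added a term for an earlier seen split of libraries (replicates 1 and 2 against 3 and 4), and, chosen after seeing the data, used another Leiden seed. The values of 1 gene of the pathway list are not reported here.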

Additional observations from a re-analysis of the deposited data

Results flagged for a closer look

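Of 232 groups of 4 libraries checked, 13 held a library whose gap to its nearest neighbour passed Dixon's 95% critical value; chance alone flags about 1 group in 20. In Ch25h+/+ Tau+, replicate 1 stood high for the summed level in all kept nuclei (434.2 CPM) and in other excitatory neurons (220.2 CPM). The same library stood high for Oasl2 in CA neurons (18.08 CPM), Eif2ak2 in microglia (200.3 CPM), Irf9 in oligodendrocyte precursors (39.24 CPM), and Eif2ak2 (13.16 CPM) and Stat2 (53.12 CPM) in other excitatory neurons. Replicate 3 of that group stood low for Irf9 in microglia (43.13 CPM), and replicate 3 of Ch25h-/- Tau+ stood low for the summed level in oligodendrocytes (231.1 CPM). In Tau- groups, Ch25h+/+ replicate 1 stood low for Irf9 in precursors (5.261 CPM). Replicate 2 of the same group was flagged for Ifi44 in astrocytes (0.465 CPM) because it held the only Ifi44 UMI of that group. Ch25h-/- Tau- replicate 1 was low for the summed level in inhibitory neurons (96.34 CPM), and its replicate 4 held the 1.023 CPM of Nlrc5 in oligodendrocytes where the other three were at 0.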

How the results depend on the processing

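No paired analysis was possible because the labels give no replicate numbers; those used here follow accession order and name no shared animal, litter or day. They do carry a split of replicates 1 and 2 against 3 and 4 in every group, which was fitted as a block. In brackets after each count, or range of counts over the fits leaving out 1 library, stands the share of all genes called in the same fits or its range over them. For the tau effect in Ch25h+/+, called members were 0 (2.18%) in microglia: 4 (2.87%) with DESeq2, 14 (2.5%) with no filter, 1 (5.16%) with the split of libraries as a block, 8 (4.28%) in replicates 1 and 2 only, and 0 to 6 (0.217% to 5.98%) leaving out 1 library. They were 1 (0.585%) in astrocytes: 3 (1.41%), 2 (0.517%), 2 (1.86%) and 3 (1.71%) under these, 0 (0.101%) in replicates 3 and 4 only, and 0 to 4 (0.0615% to 1.38%) leaving out 1. In all kept nuclei they were 0 (0.126%): 15 (2.57%) with DESeq2, 1 (0.0993%) with no filter, 3 (0.805%) with nuclei of 1000 UMIs or more, 1 (0.315%) without nuclei holding microglial UMIs, 1 (0.734%) with the block, and 0 to 5 (0.0139% to 1.06%) leaving out 1. For the tau effect in Ch25h-/-, they were 9 (1.52%) in microglia: 14 (2.51%) with DESeq2, 25 (2.04%) with no filter, 17 (3.96%) in replicates 1 and 2 only, 0 (0.0133%) in replicates 3 and 4 only, and 2 to 23 (0.313% to 4.2%) leaving out 1. In astrocytes they were 0 (0.0546%): 19 (0.858%) with DESeq2, 2 (0.123%) with no filter, 1 (0.211%) with the block, 4 (0.557%) in replicates 1 and 2 only, and 0 to 23 (0.0153% to 0.951%) leaving out 1. In oligodendrocytes and precursors together they were 1 (0.0468%): 4 (0.108%), 12 (0.109%), 2 (0.0937%) and 4 (0.226%) under these, 0 (0.0143%) in replicates 3 and 4 only, and 0 to 3 (0.0184% to 0.0643%) leaving out 1, with 0 (0.0184%) without Ch25h-/- Tau+ replicate 1. In the 4 neuron classes they were 0 (0.0523%): 9 (0.403%) with DESeq2, 1 (0.0428%) with no filter, 1 (0.0726%) without nuclei holding microglial UMIs, 2 (0.14%) in replicates 1 and 2 only, and 0 to 9 (0.0266% to 0.0923%) leaving out 1, with 9 (0.0923%) without Ch25h-/- Tau+ replicate 3. In all kept nuclei they were 0 (0.767%): 17 (2.89%) with DESeq2, 4 (1.37%) without nuclei holding microglial UMIs, 3 (1.57%) with the block, and 0 to 9 (0.0787% to 1.1%) leaving out 1, with 9 (0.885%) without Ch25h+/+ Tau+ replicate 1. For Ch25h loss in Tau+, 1 call (0.00702%) came with no filter and 0 otherwise. No filter and other depths change which genes are tested and fewer libraries leave fewer degrees of freedom; other causes were not tested.

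Over the named members, 1603 fits under alternatives left 1452 values with the same direction and side of the threshold, 76 lost a call, 73 gained one, 1 had no adjusted p from DESeq2 (Bst2 in CA neurons, tau effect in Ch25h-/-) and 1 turned sign: Isg15 in CA neurons, tau effect in Ch25h+/+, at -0.0014 in replicates 3 and 4 only against 1.53. Only called members could lose a call, and most named members were not called, so the 1452 do not measure how stable the calls were. In microglia, tau effect in Ch25h-/-, the 16 fits leaving out 1 library lost the call of Oasl2 in 12 and Bst2 in 10. They lost Ifi27 in 8, Nlrc5 and Rtp4 in 7 each, Rnf213 in 6, Samd9l in 3, and Eif2ak2 and Irf9 in 0. Another Leiden seed moved 4002 nuclei to another class and changed no count of called members. The astrocyte Irf9 call in Ch25h+/+ lies near the threshold, and a run of the clustering under another arithmetic setting lost it. Depth limits the sparse members: 12 of 41 could not be tested in microglia.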
